A study of Homo sapiens with 6 samples.

Results

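Very long introns were followed in K562 cells after knockdown of ZRSR2. An intron was counted as very long when it spanned at least 20000 nt and had a mean of at least 50 reads over the libraries, adding the reads that cross its boundaries and the reads spliced over it. Of 241593 listed introns, 19940 were this long and 5557 also had enough reads. The rule used the length and the total number of reads, not how the reads split between boundary and spliced reads and not the groups. The other 14383 introns of at least 20000 nt fell under the read minimum. The 111148 introns under 20000 nt with at least 50 reads are called shorter introns and serve as the comparison.

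K562 is a human leukaemia cell line of erythroid and megakaryocytic character. Its cells had been transduced with 1 of 2 shRNAs against ZRSR2 (K562_ZRSR2_sh1 and K562_ZRSR2_sh2, here sh1 and sh2) or with a control shRNA (K562_Con_sh, here Con_sh), and polyA-selected RNA was sequenced. Each of the 3 groups had 2 libraries, numbered by experiment (Exp1 and Exp2), and all 6 libraries came from the same line grown in the same medium. The labels do not say whether the libraries came from separate cultures, so p-values measure only the spread between these libraries, which may be technical.

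A very long intron leaves a long stretch to transcribe between its ends, and the splice sites at those ends must still be joined exactly. The first intron of a gene is often its longest, and very long introns often contain other transcribed units, such as microRNAs and alternative exons. ZRSR2 is a zinc finger protein of the minor spliceosome that recognises the 3′ splice site of U12-type introns, a small class with its own splice site sequences, and the gene is recurrently mutated in blood cancers. Almost all other introns are U2-type and are removed by the major spliceosome. K562 cells also carry the BCR-ABL1 fusion, and ABL1 has one of the long introns measured here.

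Knockdown was read from the ZRSR2 intron with the most spliced reads. It had 0.880 and 1.50 CPM (spliced reads scaled to the total of the library) in sh1, 1.03 and 1.59 in sh2, against 2.99 and 2.74 in Con_sh, so that all 4 knockdown libraries were below both Con_sh libraries. In bulk RNA, fewer cells with a transcript and less of it per cell cannot be told apart. All 11 erythroid and megakaryocytic marker genes were above 1 CPM of spliced reads on average. Their summed level was 4255 ± 2471 in sh1, 7084 ± 4279 in sh2 and 2301 ± 616 in Con_sh (SD, n = 2 each). HBG2, a globin gene, was the most abundant, with 2542 and 1114 in sh1, 3270 and 1790 in sh2 and 776 and 1168 in Con_sh. Its sh1 and Con_sh libraries thus overlapped. TFRC went the other way, lower in every knockdown library than in both Con_sh libraries. Of the lymphoid, mature myeloid, and epithelial and stromal lists, 1 of 6, 1 of 5 and 1 of 5 genes were above 1 CPM. The libraries held 82986327 to 101120454 spliced reads, and very long introns took 2.18% to 2.35% of them.

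A few sequences show what the spliceosome reads at the ends of these introns. Only sites that fall inside the promoter windows of RefSeq (GRCh38.p14) could be read, which gave 159 5′ splice sites and 48 3′ splice sites. For each end the 5 members with the most reads from different genes are printed. The 5′ sites have 9 exon bases followed by 12 intron bases, with the first 6 intron bases in capitals.
PSMB7: gacatggagGTATGTaagtcc
HK1: gtcaaaaagGTGAGCccccgc
CCDC12: gggcgcaagGTGAGAagtgtg
RTN4: gctcagtggGTGAGTgccgcg
HACD3: gacgtacagGTAAAGgccggg
These windows are chr9:124384586-124384606 on the minus strand, chr10:69319002-69319022 on the plus strand, chr3:46976625-46976645 and chr2:55049733-55049753 on the minus strand, and chr15:65530710-65530730 on the plus strand. PSMB7 encodes a catalytic subunit of the proteasome, HK1 a hexokinase and RTN4 a reticulon of the endoplasmic reticulum. Retention, explained below, was between 0.0704% and 3.58% on average in these 5 introns.

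The 3′ sites have 20 intron bases followed by 3 exon bases, with the AG that ends the intron in capitals. Bases before this AG are rich in C and T, the polypyrimidine tract.
PSMB7: agtgcacctttttcttgcAGgtt
ZFAND6: tcatgttaaatgtgttacAGgaa
GRB10: acagtctgtctttattccAGgtg
SMARCA4: tgaccaggactgtcttccAGcag
ITGB1: aggcacattttacatttcAGatg
They lie at chr9:124384654-124384676 on the minus strand, chr15:80098396-80098418 on the plus strand, chr7:50732366-50732388 on the minus strand, chr19:10984101-10984123 on the plus strand and chr10:32935556-32935578 on the minus strand. SMARCA4 is the ATPase of a chromatin remodelling complex and ITGB1 an integrin beta subunit.

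Of the 159 readable 5′ sites of very long introns, 158 began with GT and 1 with GC. The 6 bases GTAAGT stood at the start of 16 (10.1%), against 6.62% of 1315 sites of shorter introns, and GTGAGT at 34 (21.4%), against 17.0%. TATCC after the first base, as in U12-type introns, was found at 1 of the 159 and 2 of the 1315 sites. All 48 readable 3′ sites ended in AG, and the median share of C and T before it was 76.5%, the same as for shorter introns. These shares were read on the strand of the intron, at the splice site itself, and describe introns near a gene start.

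Very long introns also hold microRNA genes. Of 1562 hairpins in the RefSeq table, 106 lay on the same strand inside at least 1 of 122 very long introns, and 284 lay inside an intron of any length with at least 50 reads. The mature forms below were picked by hand from well known microRNAs of these introns, with the seed (bases 2 to 8) in capitals.
hsa-miR-301a-3p: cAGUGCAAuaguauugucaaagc
hsa-miR-454-3p: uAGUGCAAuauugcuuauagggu
hsa-miR-339-5p: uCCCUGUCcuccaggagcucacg
hsa-miR-340-5p: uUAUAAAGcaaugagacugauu
hsa-miR-342-3p: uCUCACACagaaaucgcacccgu
hsa-miR-326: cCUCUGGGcccuuccuccag
hsa-miR-652-3p: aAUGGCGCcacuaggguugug
The first 2 share the seed AGUGCAA and lie in the same 23588-nt intron of SKA2 (chr17:59131368-59154955), a gene of the spindle and kinetochore complex. That intron had 1663 and 1854 spliced reads in sh1, 1467 and 1595 in sh2 and 873 and 1439 in Con_sh. Its retention was 0.0720% ± 0.0256 in sh1, 0.195% ± 0.0345 in sh2 and 0.265% ± 0.213 in Con_sh (SD, n = 2 each), with sh2 overlapping Con_sh and both sh1 libraries below the other 4. The other 5 lie in introns of CHLSN (117113 nt), RNF130 (27141 nt), EVL (25880 nt), ARRB1 (61548 nt) and TMEM164 (63182 nt). None of these host introns was called in edgeR's retention test described below.

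The members came from many genes. A RefSeq gene could be given to 5428 of the 5557 introns (97.7%), and these fell in 2668 genes. Protein-coding genes held 5122 (92.2%), long noncoding RNA genes 247 and pseudogenes 58. In 1371 genes there was 1 very long intron, 184 genes had at least 5 and 20 had at least 10. The highest number, 12, was reached in 7 genes, among them RABGAP1L, GPHN (gephyrin), GRB10, AGAP1 and DENND1A, and the noncoding genes MIR4435-2HG and LINC-PINT.

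Their median length was 33583 nt, with quartiles of 24961 and 50356 nt, and 293 introns reached 100000 nt. The median number of reads was 195.5 per library. Overlapping introns were common among them: 2797 (50.3%) shared 1 end with another listed intron, against 19.6% of shorter introns, and 1917 (34.5%) contained other listed introns. For 979 (17.6%), a longer listed intron held at least 50% of the spliced reads, since the deposited counts give a spliced read to every intron it spans. A gene start was known for 4575 members, and 1645 of them (36.0%) began within 2000 nt after it, against 13.5% of shorter introns. They are called first introns here. The remaining 2930 are called other introns, and 146 of these begin before the start in the table.

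A few introns show where the limits fall. Introns of SMC5 and PLEKHF2, at 20000 nt, were inside the length limit, and those of LRBA (19998 nt) and SMCO4 (19991 nt) were outside. Introns of ALX4 and PRH1-PRR4, with a mean of 50 reads, were inside the read limit, and those of POU2F1 and KLF8, with 49.8, were outside.

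Most reads at very long introns were spliced in all groups. Retention is the share of boundary reads, 100 times the reads at both boundaries over those reads plus 2 times the spliced reads. It was under 1% in 2809 very long introns (50.5%; 41.8% of shorter introns), 1% to 10% in 2319, 10% to 50% in 260 and at least 50% in 169 (3.04%; 1.46% of shorter introns). Both the lowest and the highest class thus held a larger share of very long than of shorter introns. In 142 of them no library had a single boundary read.

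The median retention of very long introns was 0.888% and 0.763% in the libraries of sh1, 0.971% and 0.980% in sh2 and 0.709% and 0.866% in Con_sh. Means were 0.825% ± 0.0878 in sh1, 0.976% ± 0.00673 in sh2 and 0.788% ± 0.111 in Con_sh (SD, n = 2 each). The sh1 and Con_sh libraries overlapped, and both sh2 libraries were above both Con_sh libraries. The 4 knockdown libraries averaged 0.901% ± 0.101 and the 2 Con_sh libraries 0.788% ± 0.111, a difference of 0.113 percentage points (exact two-sided permutation test, p = 0.267, adjusted over 3 measures 0.40). With 4 against 2 libraries the smallest p this test allows is 0.133, so no difference of this kind could pass.

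Shorter introns had a higher median retention in every library, at 1.29% ± 0.148 in sh1, 1.41% ± 0.0260 in sh2 and 1.24% ± 0.101 in Con_sh (SD, n = 2 each). The difference, very long minus shorter, was −0.450 ± 0.0311 percentage points (SD over 6 libraries, exact two-sided sign-flip permutation test over libraries, p = 0.03125). This p is the smallest that 6 libraries allow, and it is also the value after Benjamini-Hochberg adjustment over the 7 comparisons of this kind. It holds for these libraries and does not treat introns as replicates. The difference was also present within genes. In 2522 genes with both kinds of intron, the median over genes was 1.06% ± 0.157 for very long introns of sh1, 1.20% ± 0.00553 of sh2 and 1.01% ± 0.113 of Con_sh. For the shorter introns of the same genes it was 1.45% ± 0.221, 1.57% ± 0.111 and 1.34% ± 0.0621 in the same order of groups (exact sign-flip permutation test, p = 0.03125, adjusted 0.03125). The very long introns were the lower ones in 56.7% to 58.4% of these genes.

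**Figure D1:**
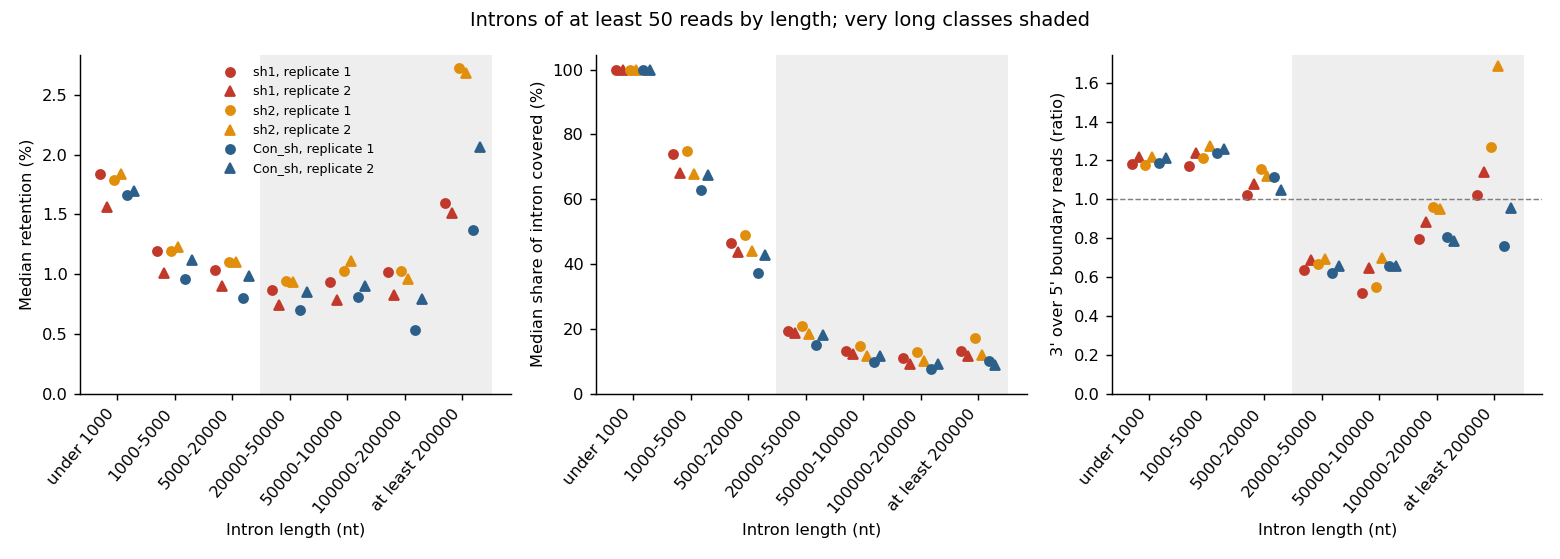
Median retention, median covered share of the intron and the ratio of 3′ to 5′ boundary reads (y axes) against intron length class (x axis), with 1 point per library and colours for sh1, sh2 and Con_sh. The covered share falls from 100% under 1000 nt to 18.4% at 20000 to 50000 nt, and the 3′ to 5′ ratio from 1.20 to 0.659; the 1.14 above 200000 nt comes from 30 introns, and the 10 of them that share no end have a ratio of 0.0351.

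Across lengths, retention fell and then levelled off. Averaged over the 6 libraries, the median was 1.73% for introns under 1000 nt, 1.12% from 1000 to 5000 nt and 0.987% from 5000 to 20000 nt. In the very long classes it was 0.841% from 20000 to 50000 nt (4144 introns), 0.927% from 50000 to 100000 nt (1120), 0.860% from 100000 to 200000 nt (263) and 1.99% above 200000 nt, where only 30 introns remained.

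The share of an intron's bases covered by reads was low in very long introns, at 16.8% ± 0.319 in sh1, 17.5% ± 1.84 in sh2 and 14.4% ± 2.11 in Con_sh (SD of the medians, n = 2 each). In shorter introns it was 80.03% ± 3.04, 80.6% ± 4.10 and 76.5% ± 2.17. Across the 6 libraries the difference, very long minus shorter, was −62.8 ± 1.68 percentage points (exact sign-flip permutation test, p = 0.03125, adjusted 0.03125). Length divides this share and also chose the members, so the test adds nothing to the values. All 4 knockdown libraries, at 16.2% to 18.8%, were above both Con_sh libraries, at 12.9% and 15.9% (exact permutation test, p = 0.133, the smallest possible; adjusted over 3 measures 0.40). In bases, coverage was higher the longer the intron. The median number of covered bases, which need not be adjacent, was 198.5 under 1000 nt, 5500 from 20000 to 50000 nt and 12589 from 100000 to 200000 nt.

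Summed over introns, boundary reads of very long introns sat mostly at the 5′ end. The summed ratio of 3′ to 5′ boundary reads was 0.656 ± 0.0505 in sh1, 0.684 ± 0.0358 in sh2 and 0.648 ± 0.0203 in Con_sh (SD, n = 2 each), against 1.19, 1.21 and 1.20 in shorter introns. The difference in this ratio, very long minus shorter, was −0.537 ± 0.0186 (SD over 6 libraries, exact sign-flip permutation test, p = 0.03125, adjusted 0.03125). In the 4 knockdown libraries it averaged 0.670 ± 0.0391 and in the 2 Con_sh libraries 0.648 ± 0.0203 (exact permutation test, p = 0.667, adjusted over 3 measures 0.667). By length, the ratio averaged 0.659 from 20000 to 50000 nt and 0.621 from 50000 to 100000 nt over the 6 libraries, and 0.863 from 100000 to 200000 nt and 1.14 above 200000 nt. The last 2 values depended on introns that share an end: without them the ratio averaged 0.502 from 100000 to 200000 nt (108 introns) and 0.0351 above 200000 nt (10 introns).

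In the summed reads, the imbalance was stronger in first introns. Per intron it was absent from the other very long introns, whose median 5′ share was 39.4% among those with at least 10 boundary reads. In first very long introns the ratio was 0.498 ± 0.0504 in sh1, 0.541 ± 0.0653 in sh2 and 0.491 ± 0.0491 in Con_sh, and in other very long introns 0.915 ± 0.0736, 0.937 ± 0.0121 and 0.892 ± 0.0186 (SD, n = 2 each). The difference, first minus other, was −0.405 ± 0.0411 over the 6 libraries (exact sign-flip permutation test, p = 0.03125, adjusted 0.03125). Among shorter introns the first ones (1.19, 1.20 and 1.21) and the other ones (1.20, 1.22 and 1.21) had close to the same ratio. First very long introns also had the higher median retention, 1.08% ± 0.190 in sh1, 1.22% ± 0.0120 in sh2 and 0.988% ± 0.0695 in Con_sh, against 0.639% ± 0.0460, 0.773% ± 0.000681 and 0.615% ± 0.124 in other very long introns (exact sign-flip permutation test, p = 0.03125, adjusted 0.03125).

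**Figure D2:**
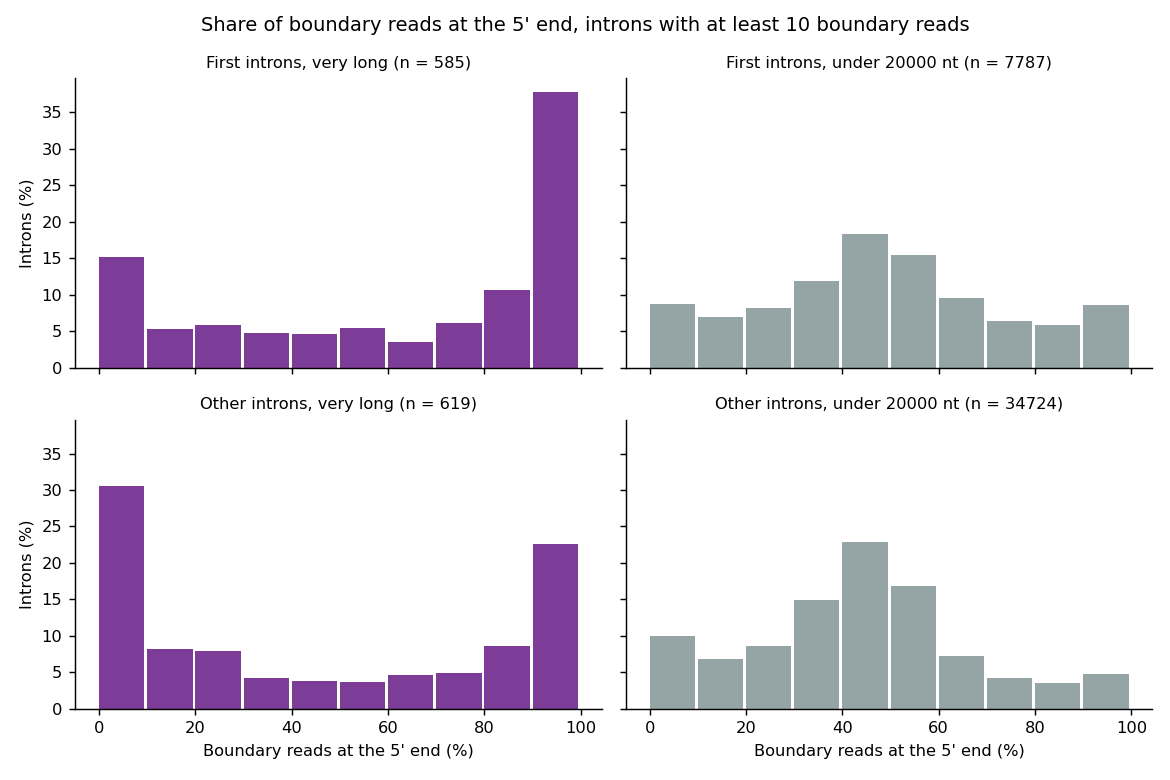
Share of boundary reads at the 5′ end, in bins of 10 percentage points (x axis), as a percent of introns with at least 10 boundary reads on average (y axis), for first introns and other introns, very long and shorter. Very long introns pile up at both ends of the scale, and 37.8% of the first very long introns lie at 90% to 100%.

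Where very long introns had enough boundary reads to compare the ends, the reads often lay mostly at 1 of them. Among the 1542 of 5557 with at least 10 boundary reads per library on average, the 5′ share had a median of 62.7%, and it was over 80% in 41.1% of introns and under 20% in 28.9%. In shorter introns only 9.63% and 16.7% were so one-sided, around a median of 45.0%. First very long introns (585) had a median 5′ share of 78.1%, and other very long introns (619) of 39.4%, with 30.5% of them between 0% and 10%. Of the 169 very long introns retained at 50% or more, 128 shared an end with another listed intron, 100 had over 80% of their boundary reads at the 5′ end and 45 had over 80% at the 3′ end.

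The most retained members had almost no spliced reads. CELF2, an RNA-binding splicing regulator, had a 245486-nt intron with 77 and 151 reads at the 3′ end in sh1, 164 and 157 in sh2 and 85 and 102 in Con_sh. It had no 5′ boundary read and at most 1 spliced read in a library. A 51742-nt intron further along CELF2, which does not overlap it, had 1276 to 1966 spliced reads and a retention of 0.116% to 0.499% in the 6 libraries. ATF7IP2 had an 85987-nt intron with 115 to 382 reads at its 5′ end and at most 2 spliced reads.

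ABL1, the kinase gene fused to BCR in these cells, had a 139608-nt intron (chr9:130714456-130854063) with 215 and 341 reads at the 3′ end in sh1, 193 and 291 in sh2 and 223 and 330 in Con_sh. At its 5′ end there were 1 to 13 reads, and 69 to 142 reads were spliced over it. This intron shares an end with another listed intron, and reads at a shared end count for both. It begins before the ABL1 start used here. Retention was 54.0% and 54.9% in sh1, 58.9% and 60.4% in sh2 and 57.7% and 63.7% in Con_sh, so that sh2 overlapped Con_sh while both sh1 libraries lay below the other 4. BCR had a 71559-nt first intron (chr22:23182240-23253798) with retention of 2.81% and 2.94% in sh1, 2.61% and 3.80% in sh2 and 1.97% and 3.28% in Con_sh. Neither was called between groups.

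Retention varied widely among the longest members. The longest, 428272 nt in IMMP2L, a mitochondrial inner membrane protease gene, had 321 to 438 spliced reads, no 5′ boundary read in any library and 0 to 3 reads at its 3′ end. A 397263-nt intron of SMYD3, a methyltransferase gene, was retained at 0% to 3.38%. In KCNQ5, a potassium channel gene, the 381320-nt first intron had 2 and 16 reads at its 5′ end in sh1, 12 and 25 in sh2 and 0 and 15 in Con_sh. The 334301-nt intron of the noncoding gene MIR3171HG was retained at 52.6% to 70.4%, with 60 to 94 reads at its 5′ end and 17 to 27 spliced reads. A 321159-nt intron without a gene name on chromosome 21 had no spliced read, while the 328929-nt first intron of CMSS1 had 635 to 934 and a retention of 0.355% to 0.704%.

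Nearly all reads at the most read members were spliced reads. For the introns of UBE2L3, YWHAE and GYPC given next, a longer listed intron around them held 91.7%, 98.1% and 99.7% as many. Such reads count for both introns, so they do not show that the named intron itself was spliced. UBE2L3, a ubiquitin-conjugating enzyme gene, had 16084 to 22062 reads spliced over its 25089-nt intron and a retention of 0.180% to 0.296%. YWHAE, a 14-3-3 protein gene, had a 30305-nt first intron with retention of 0.101% and 0.0847% in sh1, 0.0351% and 0.0875% in sh2 and 0.0489% and 0.0149% in Con_sh. The 29515-nt first intron of GYPC, a red cell glycophorin gene, was retained at 0.468% and 0.365% in sh1, 0.546% and 0.249% in sh2 and 0.248% and 0.224% in Con_sh. It was not called (log2 fold change 0.76, edgeR adjusted p = 1). Introns of DENND4C (45324 nt) and CHCHD3 (49259 nt) had no boundary read in any library, beside 848 to 9304 and 1170 to 1644 spliced reads.

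Few very long introns were called for a change of retention after knockdown. In edgeR's quasi-likelihood test of boundary against spliced reads, fitted to 134078 introns with Benjamini-Hochberg adjustment at 0.05, both shRNAs against Con_sh gave 5 very long introns with higher and 2 with lower retention, 0.126% of 5557. Over all introns tested, 0.33% were called higher, 0.0209% lower and 0.351% in either direction, so the share called was below that of all introns. At an unadjusted p under 0.05 there were 263 (4.73%), against 4.44% of all introns. Only 1542 of the 5557 averaged at least 10 boundary reads per library, against 52503 of 111148 shorter introns. Low counts limit what the test could call, so few calls do not show that few introns changed. The median log2 fold change was 0.11 over the very long introns and 0.09 over all introns.

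For sh1 against Con_sh, 3 were called higher and 1 lower, beside 0.292% and 0.0104% of all introns (0.302% in either direction). At an unadjusted p under 0.05 there were 228 (4.10%; 4.09% of all introns). For sh2 against Con_sh, 9 were higher and 2 lower, beside 0.267% and 0.0194% of all introns (0.286% in either direction), and 301 had an unadjusted p under 0.05 (5.42%; 4.5% of all introns). Both comparisons share the Con_sh libraries. The median log2 fold change of the very long introns was 0.02 for sh1 (all introns 0.03) and 0.24 for sh2 (all introns 0.17). Between the shRNAs themselves, 2 very long introns were called higher in sh1 than in sh2 and 0 lower by edgeR, beside 0.0246% and 0.0097% of all introns (0.0343% in either direction). DESeq2 called none of them in this contrast, and 267 had an unadjusted p under 0.05 in edgeR's test (4.80%; 3.83% of all introns). In all, 17 different very long introns were called in at least 1 of the 4 contrasts.

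**Figure D3:**
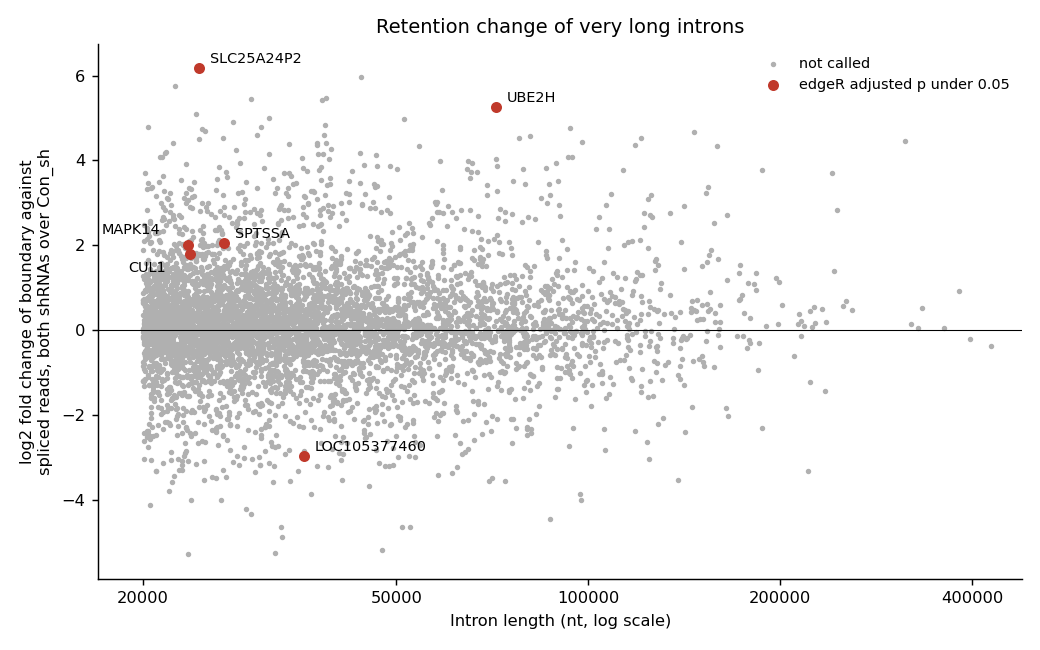
Log2 fold change in the retention test, both shRNAs over Con_sh (y axis), against intron length on a log scale (x axis), with 1 point per very long intron drawn. Red points are introns called by edgeR, 6 of the 7 being drawn, of which UBE2H at 71531 nt is the longest; a fitted fold change of an intron with few boundary reads depends on the prior count of the fit.

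**Figure D4:**
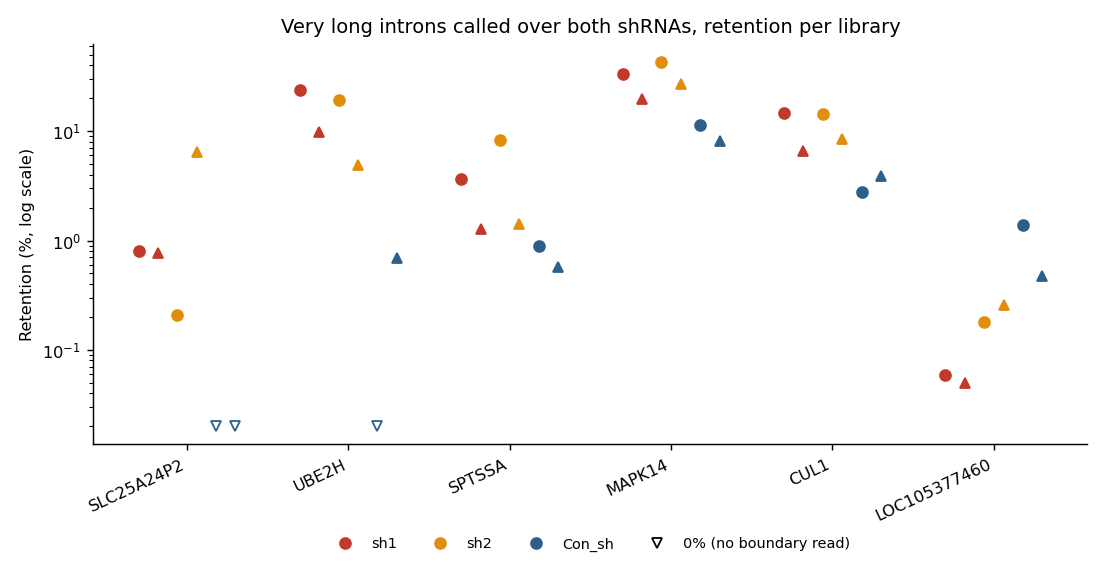
Retention in percent on a log scale (y axis) of 6 of the 7 very long introns called for both shRNAs against Con_sh (x axis), with circles for library 1, triangles for library 2, colours for sh1, sh2 and Con_sh, and open symbols at the bottom for 0%. UBE2H, SPTSSA, CUL1, MAPK14 and SLC25A24P2 are higher in knockdown libraries, and LOC105377460 is lower.

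UBE2H, which encodes an E2 ubiquitin-conjugating enzyme, had the lowest p of the very long introns for both shRNAs against Con_sh. Its 71531-nt intron (chr7:129880972-129952502, minus strand) had 146 and 31 reads at the 5′ end in sh1, 223 and 14 in sh2 and 0 and 2 in Con_sh. Reads at the 3′ end were fewer, 17 and 4 in sh1, 8 and 0 in sh2 and 0 and 0 in Con_sh. Spliced reads were 264 and 160, 480 and 135, and 122 and 143 in the same order of groups.

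Retention of this intron was therefore 23.6% and 9.86% in sh1, 19.4% and 4.93% in sh2 and 0% and 0.694% in Con_sh. Every knockdown library was above both Con_sh libraries. The log2 fold change was 5.25 ± 0.852 (SE; edgeR adjusted p = 6.34e-07), with 5.52 for sh1 (adjusted p = 1.57e-06) and 4.97 for sh2 (adjusted p = 0.000116). The ratio of boundary to spliced reads, summed over libraries, was 56.5-fold higher, with a 95% counting interval of 15.5 to 468 that covers counting error only. Its covered share was 26.5% and 15.6% in sh1, 24.9% and 10.1% in sh2 and 3.22% and 4.99% in Con_sh. A 43908-nt intron with the same 3′ end was not called (edgeR adjusted p = 0.903), and none of the 9 other tested introns of UBE2H was called. The call held without any 1 library, at adjusted p of 3.4e-08 to 0.0069. Over 16 alternative fits, those without 1 library among them, it was kept in 11 and lost in 5. DESeq2 called 0 very long introns higher for both shRNAs, and so did not make this call. For sh2 alone it was lost without library 1 of sh2 (0.89) or library 1 of Con_sh (0.058).

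SPTSSA encodes a small subunit of serine palmitoyltransferase, the first enzyme of sphingolipid synthesis. Its 26791-nt first intron (chr14:34435305-34462095, minus strand) had 26 and 10 reads at the 5′ end in sh1, 61 and 10 in sh2 and 21 and 17 in Con_sh, and 32 and 21, 28 and 16, and 10 and 3 at the 3′ end. Spliced reads were 757 and 1213 in sh1, 491 and 900 in sh2 and 1740 and 1731 in Con_sh, so the knockdown libraries had fewer of them. Retention was 3.69% and 1.26% in sh1, 8.31% and 1.42% in sh2 and 0.883% and 0.574% in Con_sh, with every knockdown library above both Con_sh libraries. The log2 fold change was 2.05 ± 0.424 (SE; edgeR adjusted p = 0.00067), and sh2 alone was called (2.44, adjusted p = 0.000485) but sh1 was not (1.65, adjusted p = 0.18). The call was lost without library 1 of sh1 (edgeR adjusted p = 0.12), library 1 of sh2 (0.77) or library 2 of Con_sh (0.36).

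CUL1 is the scaffold of the SCF ubiquitin ligases. Its 23713-nt intron (chr7:148730263-148753975, plus strand) had 190 and 109 reads at the 5′ end in sh1, 181 and 119 in sh2 and 41 and 60 in Con_sh, and 14 and 12, 44 and 17, and 5 and 7 at the 3′ end. Retention was 14.8% and 6.54% in sh1, 14.3% and 8.58% in sh2 and 2.79% and 3.85% in Con_sh, again higher in every knockdown library, beside 588 to 864 spliced reads in the 6 libraries. The log2 fold change was 1.79 ± 0.400 (SE; edgeR adjusted p = 0.00296), with 1.88 for sh2 (adjusted p = 0.0159) and 1.70 for sh1 (adjusted p = 0.0691). None of 21 other tested introns of CUL1 was called. Without library 1 of sh1, library 1 of sh2, library 1 of Con_sh or library 2 of Con_sh the adjusted p was 0.16, 0.12, 0.45 and 0.066.

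MAPK14, the stress-activated kinase p38 alpha, had a 23579-nt intron (chr6:36076609-36100187, plus strand) with 128 and 101 reads at the 5′ end in sh1, 162 and 138 in sh2 and 39 and 46 in Con_sh. At the 3′ end there were 59 and 47, 109 and 51, and 23 and 39. Retention was 33.5% and 19.6% in sh1, 42.8% and 26.8% in sh2 and 11.4% and 8.15% in Con_sh, with every knockdown library above both Con_sh libraries. On the log2 scale the fold change was 2.01 ± 0.457 (SE; edgeR adjusted p = 0.00407), with 2.30 for sh2 (adjusted p = 0.00569) and 1.72 for sh1 (adjusted p = 0.242).

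An alternative intron of MAPK14 with the same 5′ end spans 19378 nt, just under the length limit. Its retention was 25.7% and 13.7% in sh1, 28.6% and 19.9% in sh2 and 6.33% and 3.94% in Con_sh (log2 fold change 2.37 ± 0.437, edgeR adjusted p = 3.69e-05). It was the only one of 13 other tested introns of the gene to be called, and both introns count the same 5′ boundary reads. The call of the 23579-nt intron was lost without library 1 of sh1 (edgeR adjusted p = 0.082), library 1 of sh2 (0.16), library 1 of Con_sh (0.051) or library 2 of Con_sh (0.62).

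**Figure D5:**
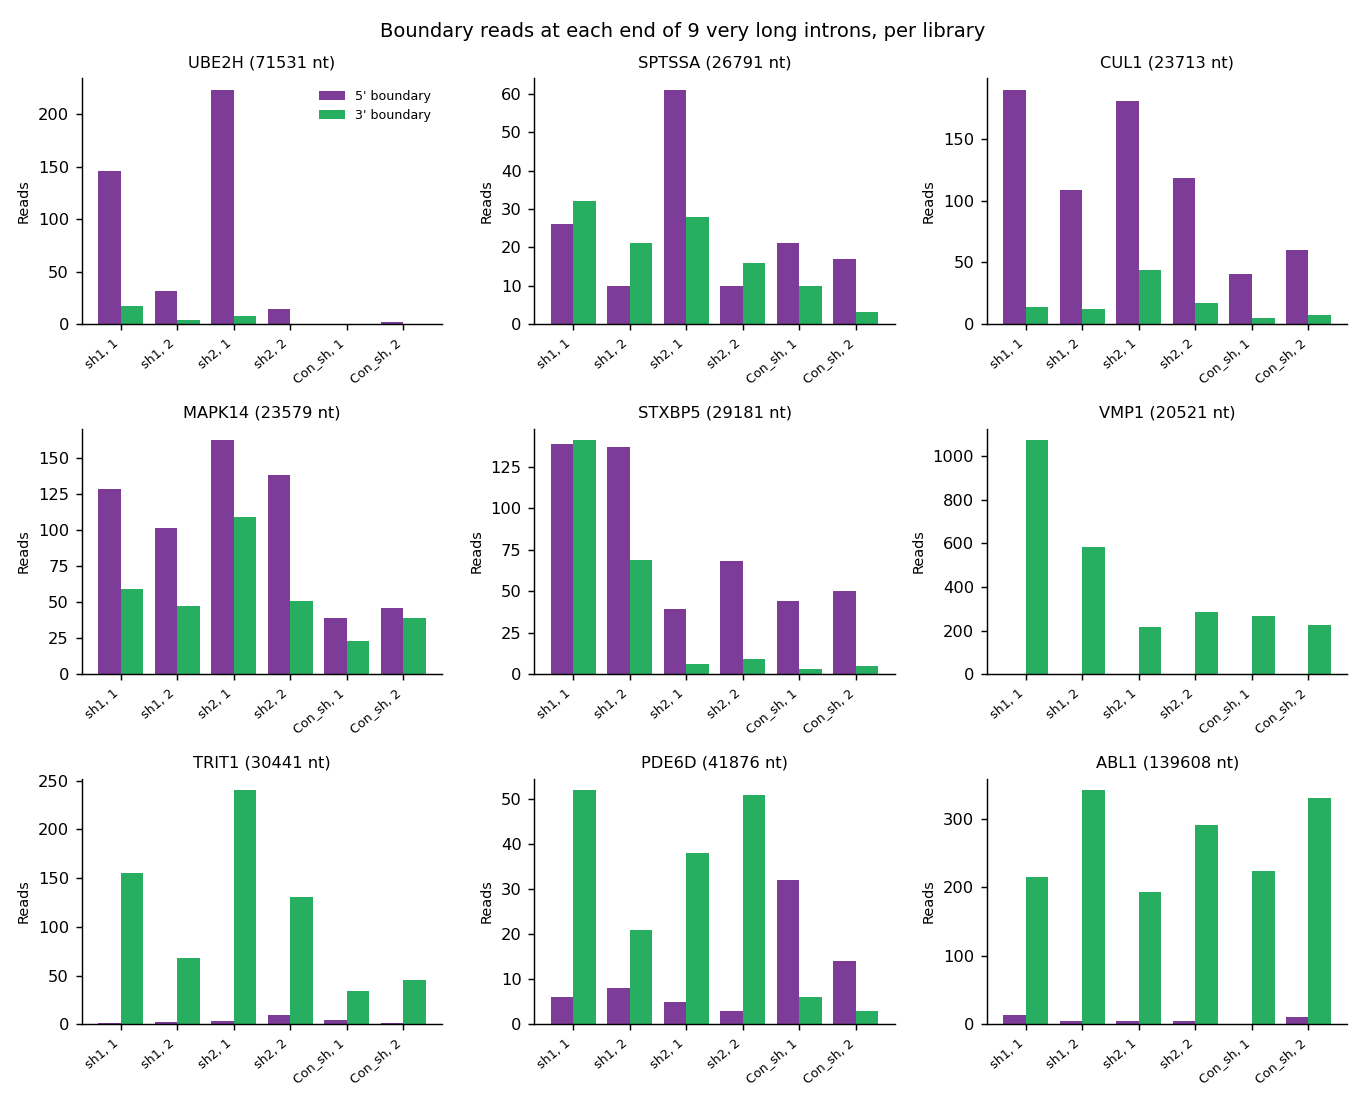
Reads at the 5′ and at the 3′ boundary, as bars (y axis), in each library (x axis, sh1, sh2 and Con_sh) for 9 very long introns, in UBE2H, SPTSSA, CUL1, MAPK14, STXBP5, VMP1, TRIT1, PDE6D and ABL1. Most reads lie at the 5′ end in UBE2H and CUL1 and at the 3′ end in VMP1, TRIT1 and ABL1, and PDE6D has more 3′ than 5′ reads in all 4 knockdown libraries and the reverse in both Con_sh libraries.

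SLC25A24P2, a pseudogene of a mitochondrial carrier, had a 24543-nt intron with 4 and 5 boundary reads in sh1, 1 and 6 in sh2 and none in Con_sh, beside 43 to 500 spliced reads. Summed over libraries, boundary against spliced reads were at least 4.96-fold higher in knockdown, taking 3 counts for the group at 0 (edgeR adjusted p = 0.0396). Whether reads of its parent gene were counted here was not tested. The call was lost without any library other than library 1 of sh2, at adjusted p of 0.067 to 1.

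LOC105377460 is a noncoding gene whose very long intron was lower. This 35791-nt intron (chr4:144090132-144125922) had 3 and 2 boundary reads in sh1, 17 and 8 in sh2 and 13 and 8 in Con_sh. Spliced reads were 2539 and 2006 in sh1, 4718 and 1567 in sh2 and 460 and 833 in Con_sh. All 4 knockdown libraries had more spliced reads than both Con_sh libraries.

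Its retention was 0.0590% and 0.0498% in sh1, 0.180% and 0.255% in sh2 and 1.39% and 0.478% in Con_sh, lower in every knockdown library than in both Con_sh libraries (log2 fold change −2.96 ± 0.576, edgeR adjusted p = 0.00015). For sh1 alone the log2 fold change was −3.89 (edgeR adjusted p = 5.02e-05). Reads of the 2 strands cannot be told apart in these counts. The marker sum, in which HBG2 was the most abundant gene, was 4255 ± 2471 in sh1, 7084 ± 4279 in sh2 and 2301 ± 616 in Con_sh. Its part in this result was not tested. The call was lost without library 1 of Con_sh (edgeR adjusted p = 0.66).

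Some very long introns were called for 1 shRNA. STXBP5 (tomosyn, a regulator of vesicle fusion) had a 29181-nt first intron (chr6:147206069-147235249) with 139 and 137 reads at the 5′ end in sh1, 39 and 68 in sh2 and 44 and 50 in Con_sh. At the 3′ end there were 141 and 69 in sh1, 6 and 9 in sh2 and 3 and 5 in Con_sh. Both ends were thus higher in sh1 and near Con_sh in sh2. Retention was 16.0% and 7.23% in sh1, 4.29% and 4.25% in sh2 and 3.66% and 2.87% in Con_sh (sh1 against Con_sh, log2 fold change 1.87 ± 0.454, edgeR adjusted p = 0.0152). The call was lost without library 1 of sh1 (1), library 1 of Con_sh (0.13) or library 2 of Con_sh (0.56).

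VMP1, a membrane protein of the endoplasmic reticulum needed for autophagy, had a 20521-nt intron (chr17:59817774-59838294) whose boundary reads were nearly all at the 3′ end. They numbered 1074 and 582 in sh1, 216 and 285 in sh2 and 269 and 227 in Con_sh. Retention was 47.8% and 26.6% in sh1, 17.0% and 17.9% in sh2 and 16.8% and 13.5% in Con_sh. For VMP1 the log2 fold change of sh1 against Con_sh was 1.70 ± 0.425 (SE; edgeR adjusted p = 0.0239), and it was lost without library 1 of sh1 (1), library 1 of Con_sh (0.15) or library 2 of Con_sh (0.63). Neither STXBP5 nor VMP1 was called between sh1 and sh2.

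For sh2, introns of CYTOR and TRIT1 were called. CYTOR is a cytoplasmic long noncoding RNA, and its 40783-nt intron (chr2:87480424-87521206) had 6 and 5 reads at the 5′ end in sh1, 28 and 13 in sh2 and 6 and 2 in Con_sh, and 12 and 22, 72 and 23, and 5 and 10 at the 3′ end. Retention was 0.326% and 0.361% in sh1, 1.15% and 0.450% in sh2 and 0.185% and 0.151% in Con_sh (sh2 against Con_sh, log2 fold change 2.17 ± 0.472, edgeR adjusted p = 0.00242). A 48321-nt CYTOR intron with the same 3′ end was called too (2.03, edgeR adjusted p = 0.0165). Both introns count the same 3′ boundary reads and have nearly the same spliced reads, so their calls are not independent. Both calls were lost without library 1 of sh2 (1 and 1), library 1 of Con_sh (0.058 and 0.51) or library 2 of Con_sh (0.32 and 0.17).

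TRIT1 modifies transfer RNAs. Its 30441-nt intron (chr1:39852877-39883317) had 155 and 68 reads at the 3′ end in sh1, 240 and 131 in sh2 and 34 and 45 in Con_sh, and at most 9 reads at the 5′ end. Retention was 45.3% and 19.9% in sh1, 81.8% and 52.2% in sh2 and 23.5% and 19.3% in Con_sh (sh2 against Con_sh, log2 fold change 2.98 ± 0.675, edgeR adjusted p = 0.00498). The same 3′ end belongs to a 1093-nt intron of TRIT1, which was called for both shRNAs (2.10, edgeR adjusted p = 0.0001). The call of the long intron was lost without library 1 of sh2 (1) or library 2 of Con_sh (0.23).

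A further 2 introns called in sh2, named after their values were seen, rest on few boundary reads. RTN3 (36923 nt) had 13 and 6 boundary reads in sh2 and 0 and 2 in Con_sh, an 11.6-fold ratio with a 95% counting interval of 2.80 to 103 (edgeR adjusted p = 0.0372). APLP2 (38681 nt) had 7 and 8 in sh2 and none in Con_sh, at least 4.19-fold higher with 3 counts for the group at 0 (edgeR adjusted p = 0.038). RTN3 lost its call without library 1 of sh2 (1), library 1 of Con_sh (0.92) or library 2 of Con_sh (0.061). APLP2 lost it without any 1 of the 4 sh2 and Con_sh libraries (0.19 to 0.99).

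The calls that separate the 2 shRNAs came from 1 library. On chromosome 7, a 30695-nt intron without a gene name (chr7:5394596-5425290) had 14 and 30 spliced reads in sh1, 19 and 2912 in sh2 and 29 and 35 in Con_sh. Its retention was 34.9% and 13.0% in sh1, 15.6% and 0.0172% in sh2 and 13.4% and 10.3% in Con_sh. The fold change on the log2 scale was −5.72 for sh2 against Con_sh (edgeR adjusted p = 3.56e-07) and 6.78 for sh1 against sh2 (edgeR adjusted p = 3.68e-10). Without library 2 of sh2 they were 0.47 and 0.61 and neither was called. The 26464-nt intron of TNRC18 with the same 3′ end had 3063 spliced reads in that library and 147 to 308 in the others (sh1 against sh2, log2 fold change 3.46, edgeR adjusted p = 0.0238; 0.13 without that library). The first of these was the only very long intron of the 5557 whose spliced reads in 1 library were at least 10-fold above those in every other library.

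The balance of boundary reads changed in a first intron of PDE6D, a chaperone of prenylated proteins. Its 41876-nt intron (chr2:231739189-231781064) had 6 and 8 reads at the 5′ end in sh1, 5 and 3 in sh2 and 32 and 14 in Con_sh. At the 3′ end the order was the opposite, with 52 and 21 in sh1, 38 and 51 in sh2 and 6 and 3 in Con_sh. Knockdown libraries thus had more reads at the 3′ end and Con_sh libraries more at the 5′ end. The log2 fold change of 3′ against 5′ reads was 5.17 ± 0.700 (SE; edgeR adjusted p = 0.00118), 4.60 for sh1 (adjusted p = 0.0302) and 5.74 for sh2 (adjusted p = 0.00262). It was lost without library 1 of Con_sh (edgeR adjusted p = 0.20).

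Among the 1542 very long introns tested for this balance PDE6D was the only one called for both shRNAs, 1 higher and 0 lower, and 0.0104% of all 57432 introns tested were called higher and 0.00696% lower (0.0174% in either direction). At an unadjusted p under 0.05 there were 100 in edgeR's test (6.49%; 4.04% of all introns), and DESeq2 was not run on this measure. For sh1, with 0.0122% of all introns called higher and 0.00348% lower, the STXBP5 intron was called as well, with 3′ reads higher against 5′ reads (log2 fold change 3.07 ± 0.538, edgeR adjusted p = 0.0306). For sh2, 0.0139% of all introns were called higher and 0.0122% lower. Total retention of the PDE6D intron was 16.5% and 7.23% in sh1, 9.66% and 12.3% in sh2 and 6.15% and 3.91% in Con_sh, which was not called (edgeR adjusted p = 0.989).

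Spliced reads of very long introns, a measure of how much mature RNA crosses them, gave no call by edgeR. In each of the 3 contrasts with Con_sh, 0 of 5483 tested introns passed, as did 0.0% of all 146073. At an unadjusted p under 0.05 there were 523 (9.54%) for both shRNAs, 412 (7.51%) for sh1 and 527 (9.61%) for sh2. Over all introns the shares were 8.62%, 6.99% and 8.85%, each somewhat lower. DESeq2 called 12 higher and 4 lower for both shRNAs, 12 and 0 for sh1 and 19 and 4 for sh2. These were 0.292%, 0.219% and 0.419% of the very long introns tested, below the 0.466%, 0.296% and 0.611% that DESeq2 called over all introns. The median log2 fold change for both shRNAs was 0.06 over the very long introns and −0.01 over all.

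The lowest unadjusted p values named genes that did not pass. SLC7A11, the cystine and glutamate antiporter, had 205 and 191 reads spliced over its 29340-nt intron in sh1, 230 and 224 in sh2 and 42 and 71 in Con_sh (log2 fold change 1.97, unadjusted p in edgeR's test 5.1e-05, adjusted p = 0.216). CLIC4, a chloride intracellular channel protein, had 1325 and 1078 in sh1, 1124 and 842 in sh2 and 391 and 623 in Con_sh over its 52116-nt first intron (log2 fold change 1.17). CD44, a hyaluronan receptor, had 550 and 511 in sh1, 37 and 93 in sh2 and 91 and 112 in Con_sh over its 37204-nt first intron. PALD1 went the other way, with 26 and 31 in sh1, 14 and 26 in sh2 and 114 and 69 in Con_sh over its 46863-nt first intron (log2 fold change −1.93, unadjusted p in edgeR's test 0.00105, adjusted p = 0.546). In PALD1 all knockdown libraries were below both Con_sh libraries, in SLC7A11 and CLIC4 all knockdown libraries were above both Con_sh libraries, and in CD44 only sh1 was.

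Gene groups were described by lists of genes that hold very long introns. Of 42 genes recalled as hosts of U12-type introns, 16 had 43 very long introns, and 1 of these, in MAPK14, was more retained, while 43 of 604 shorter tested introns of the list were. Over all introns tested, 0.33% were called higher for both shRNAs. Median log2 fold change over the 43 was −0.01, against 0.09 for all introns tested. XRCC5, a DNA end-binding protein of break repair, had 0 to 3 boundary reads at each end beside 3087 to 4361 spliced reads.

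Ubiquitin ligases and proteases had 77 very long introns in 34 of 39 genes, and 2 rose, those of UBE2H and CUL1. Among shorter tested introns of this list, 3 of 1013 rose. Kinases and phosphatases had 101 in 36 of 46 genes, with MAPK14 the only call, beside 8 of 594 shorter ones called higher. The share over all introns was 0.33%. These lists were written with earlier results known, so the counts are no result about a group. None of the very long introns was called in blood cell transcription factors (50 in 16 of 31 genes), chromatin regulators (65 in 31 of 40), RNA-binding proteins (64 in 19 of 34) or very large genes at common fragile sites (80 in 13 of 30). Their median log2 fold changes lay between −0.09 and 0.18. Of the shorter tested introns of these lists, in the same order, 0 of 210, 0 of 998, 7 of 396 and 0 of 189 were called higher.

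The best read members of some of these lists, none of them called, are given next. In STAT5B, a transcription factor of cytokine signalling, the 44110-nt first intron had 39 and 23 reads at the 5′ end in sh1, 34 and 33 in sh2 and 9 and 12 in Con_sh. Its retention was 2.41% and 1.08% in sh1, 1.60% and 2.14% in sh2 and 0.657% and 0.785% in Con_sh, above both Con_sh libraries in all 4 knockdown libraries but not called (log2 fold change 1.29, edgeR adjusted p = 0.468). The first intron of USP15, a deubiquitinating enzyme, spans 33675 nt and had 274 and 357 reads at the 5′ end in sh1, 243 and 191 in sh2 and 725 and 298 in Con_sh. Retention there was 9.31% and 11.6% in sh1, 8.83% and 8.19% in sh2 and 28.9% and 10.6% in Con_sh, with library 1 of Con_sh above the others (log2 fold change −1.09, edgeR adjusted p = 0.352). The only very long intron in 17 minor spliceosome genes, 26512 nt in RBM41, had 0 to 2 boundary reads beside 158 to 220 spliced reads.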

How the data were processed

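Per the labels' protocols, polyA-selected RNA of K562 cells was made into libraries with a NEBNext Ultra kit. The authors deposited 1 table per library with counts of reads at both boundaries of each intron and of reads spliced over it, which per the file headers are not normalised. The deposited tables also held the covered fraction of each intron's bases and a percent equal to the retention defined here (largest deviation 2.8e-14). The aligner, counter and intron annotation are not given in the sources used here. A spliced read was counted for every intron its gap spans, on either strand, so reads of overlapping genes and of alternative introns are shared.

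The submitters' processing notes name hg19, but the positions matched GRCh38: 95.6% of introns lay inside a RefSeq gene on GRCh38, against 62.6% and 62.9% after a shift of 100 kb up or down. Gene names and sequences came from RefSeq tables (GRCh38.p14), and no coordinate was converted.

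The members and gene lists were chosen with earlier results of these data known. Introns with a mean of at least 20 reads were tested for retention with edgeR 4.0.16 (R 4.3.3, limma 3.58.1): boundary and spliced counts of each library formed a pair, with the library as a factor and 3 residual degrees of freedom among libraries. Spliced reads were tested after filterByExpr and TMM scaling, and 3′ against 5′ boundary reads at a mean of at least 10. Benjamini-Hochberg adjustment ran over all introns tested, at 0.05. DESeq2 1.42.0 was an alternative. Summaries and exact permutation tests used Python 3.11.15, pandas 2.3.3, numpy 2.4.6 and matplotlib 3.10.9. The fits were tested on simulated data. Libraries of a group differed by more than sampling noise. Intervals and the limit of 3 counts cover counting error only.

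The text names the members with the lowest adjusted p in each test, the longest, the most read, the most and least retained, those in ABL1 and BCR, those at the limits and the best read of each gene list. Members named beyond this rule are said to be. A few results covered by the rule are not reported here.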

Additional observations from a re-analysis of the deposited data

Results flagged for a closer look

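Retention differed between sh1 and sh2 in 2 very long introns, by the edgeR test of that difference itself. The intron without a gene name at chr7:5394596-5425290 had a log2 fold change of 6.78 for sh1 against sh2, and the TNRC18 intron with the same 3′ end one of 3.46. Both rest on library 2 of sh2, which held 2912 and 3063 reads spliced over them, and without it the values were 0.61 and 0.13. No test was made of what sets that library apart at this position.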

How the results depend on the processing

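For both shRNAs, sh1 and sh2 against Con_sh and sh1 against sh2, the numbers of very long introns called on retention were 7, 4, 11 and 2. In the same order they were 1, 1, 0 and 0 with DESeq2, which called 0.158%, 0.118%, 0.0679% and 0.00373% of all 134078 introns. Its adjusted p was missing for 2102, 1787, 3726 and 0 of the very long introns. Both DESeq2 calls of very long introns were of lower retention, and 0 very long introns were called higher. Over all introns, 205 of its 212 calls for both shRNAs were higher. The numbers were 15, 9, 17 and 6 with TMM scaling, the sh2 calls then being 9 higher and 8 lower, and 4, 2, 6 and 1 with at least 50 reads. With introns that share an end left out they were 3, 2, 2 and 0. A limit of 10000 nt gave 17, 12 and 23 in the contrasts with Con_sh, and one of 50000 nt gave 1, 1, 1 and 0. Doubling the smaller boundary count gave 0, 1, 0 and 0, and doubling the 5′ or the 3′ count alone gave 0 in each contrast. Over all introns these 3 settings called 89, 0 and 1 of 134078 for both shRNAs, where the main setting called 471. TMM scaling called 569 of all introns for both shRNAs. The limit of 50 reads called 380 of 116705, and the fit without shared ends 421 of 105135. The following were chosen after seeing the data, as were the single doubled ends. The undoubled 5′ count gave 1, 1, 2 and 1, and the undoubled 3′ count gave 7 for sh2. Over all introns the undoubled 5′ and 3′ counts gave 281 and 329 calls for both shRNAs. Leaving out introns mostly within a longer one gave 7 for sh2 and 1 for sh1 against sh2. Leaving out 1 library gave 3 to 12, 1 to 10, 4 to 13 and 0 to 3. The cause of these changes was not tested.

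Same-numbered libraries were weakly correlated (0.03 to 0.08 over very long introns), and the main fits did not take the numbers as pairs. With few boundary reads per intron, such a correlation cannot show whether Exp1 and Exp2 shared an effect. The ZRSR2 intron had 0.880 and 1.03 CPM in library 1 of sh1 and sh2, and 1.50 and 1.59 in library 2. In Con_sh it had 2.99 and 2.74. With the replicate block there were 17, 14, 17 and 4 calls on retention, 2 on spliced reads for both shRNAs and 2 for sh2, and 5 on boundary balance. Retention calls over all introns also rose with the block, from 471 to 666 of 134078 for both shRNAs. Spliced reads, with 0 calls by edgeR, gave 16, 12 and 23 with DESeq2 for both shRNAs, sh1 and sh2. Leaving out 1 library gave 0 to 3, 0 to 1 and 0 to 26, the last without library 2 of sh2. Boundary balance gave 7 calls instead of 1 with at least 5 boundary reads, 6 of them lower, and 0 to 4 without 1 library.

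The median retention for sh1, sh2 and Con_sh was 0.958%, 1.15% and 0.922% with at least 20 reads, 0.680%, 0.812% and 0.638% without shared ends and 0%, 0% and 0% with the smaller count doubled. It moved to 0.712% in sh1 and 0.853% in sh2 with at least 100 reads, and in sh2 to 1.003% from 10000 nt and 1.09% from 50000 nt. A single value reversed in LOC105377460 for both shRNAs, to 0.0890 with the smaller count doubled and 0.0860 with the 5′ end doubled, and in the unnamed chromosome 7 intron for sh2, to 0.47 without library 2 of sh2 (−9.44 without library 1). Very long introns had a median of 1.33 reads per library at the 5′ end and 1 at the 3′ end.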

Other observations

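Several very long introns had unadjusted p values among the lowest of their test without passing. DYSF, a membrane repair protein, had 62 and 58 spliced reads over its 23355-nt intron in sh1, 342 and 131 in sh2 and 28 and 58 in Con_sh. MBOAT2, an acyltransferase, had 164 and 227 in sh1, 323 and 272 in sh2 and 123 and 159 in Con_sh over 20547 nt. RDH10, a retinol dehydrogenase, had 433 and 406 in sh1, 203 and 231 in sh2 and 176 and 155 in Con_sh over 21666 nt. The 52670-nt intron of NIBAN1 was retained at 0.619% and 0.213% in sh1 and at 6.75% and 2.55% in sh2.

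A pair of introns without gene names on chromosome 21 had the lowest unadjusted p for boundary balance after PDE6D. The one at chr21:8201053-8222960 had 170 and 97 reads at the 5′ end in sh1, 289 and 93 in sh2 and 143 and 45 in Con_sh, and 108 and 91, 136 and 90, and 211 and 122 at the 3′ end. The one at chr21:8384099-8405959 had nearly the same boundary reads, and reads of near-identical copies cannot be told apart in these counts.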
